A study of Homo sapiens with 8 samples.

Results

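The RNA interference machinery was followed through 10 genes: DROSHA, DGCR8, XPO5, DICER1, TARBP2, AGO1, AGO2, AGO3, AGO4 and TNRC6A. They were chosen by gene symbol, and all 10 were found among the 27475 human genes measured. The RNA-seq libraries came from UM-UC-3 and from RT112, established lines grown from human bladder cancers, with 2 libraries in each of 4 groups. Per line, the cells of one group were transfected with 3 pooled siRNAs directed at PAI-1 (siPAI-1) and those of the other with 3 pooled scrambled siRNAs (Scr), at 100 pmol for 72 h. Thus the cells of all 8 libraries had been transfected with synthetic siRNA, and no untransfected cells were among them. Each line stands for itself alone, and the labels name RPMI 1640 and DMEM as growth media without tying either to a line, so line and medium cannot be told apart. Where no label ties the 2 libraries of a group to separate cultures, p-values measure only the spread between these libraries.

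MicroRNAs are cut out of long primary transcripts in the nucleus by the Microprocessor, which is made of the nuclease DROSHA and its RNA-binding partner DGCR8. The resulting hairpin is carried to the cytoplasm by Exportin-5 (XPO5) and cut again by DICER1 with its partner TARBP2, and one strand is loaded into an Argonaute protein (AGO1 to AGO4). Argonautes recruit the scaffold TNRC6A, which brings in enzymes that shorten and decap the target mRNA, and AGO2 can also cut a fully matched target, as in siRNA experiments.

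Levels are given as TPM, in which the reads of each gene are divided by transcript length and each library is scaled to one fixed sum. A value is therefore a share of the mRNA pool and can be compared between genes. In bulk RNA, fewer cells that express a gene cannot be told apart from less RNA per cell. Differences were tested with limma on log2(TPM + 0.1), which understates changes of genes near 0, and a gene was called at an adjusted p under 0.05. Depth was estimated at 29.5 to 34.3 M reads per library, in a search limited to 20 to 45 M reads. If that depth holds, upper estimates of the reads behind one value were lowest for AGO4, with 554 to 1138 reads. They reached 6413 to 13844 for DROSHA.

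The lines were checked against cell type markers. All 8 epithelial and urothelial markers were called higher in RT112 Scr. EPCAM was at 0.14 to 0.46 TPM over the 4 UM-UC-3 libraries and at 327 to 344 TPM over the 4 RT112 libraries, and CDH1 (E-cadherin) at 0 to 0.48 and 141 to 150 TPM. The mesenchymal genes VIM and ZEB1 showed the opposite, with VIM at 2852 to 3142 TPM in UM-UC-3 and 6.04 to 8.09 TPM in RT112. CDH2 was called higher in RT112 Scr, at 18.2 and 20.6 TPM against 10.6 and 9.22 TPM, but under siPAI-1 the lines overlapped, at 7.65 and 17.9 TPM against 12.6 and 12.4 TPM (-0.10, adjusted p = 0.867). Of 4 leukocyte and 3 endothelial markers, none exceeded 1.76 TPM, and PTPRC, which defines leukocytes, was at 0 to 0.03 TPM.

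All 10 genes were expressed in every library, from 3.8 TPM for AGO4 in an RT112 Scr library to 121 TPM for DROSHA in an RT112 siPAI-1 library. DROSHA was the highest and XPO5 the next in all 4 groups, with libraries that did not overlap those of the next gene. AGO1, AGO3 and AGO4 took the lowest places in all 4 groups. AGO1 and AGO3 could not be told apart in UM-UC-3 siPAI-1, where their libraries overlapped. The middle of the order differed between lines. TARBP2 and TNRC6A held ranks 3 and 4 in UM-UC-3 Scr and ranks 6 and 7 in RT112 Scr, although in UM-UC-3 Scr the libraries of TARBP2, TNRC6A and AGO2 overlapped. Over all 8 libraries, the mean of DROSHA lay above 84.1% of the 12803 genes that averaged 1 TPM or more, and that of AGO4 above 20.2%.

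**Figure D1:**
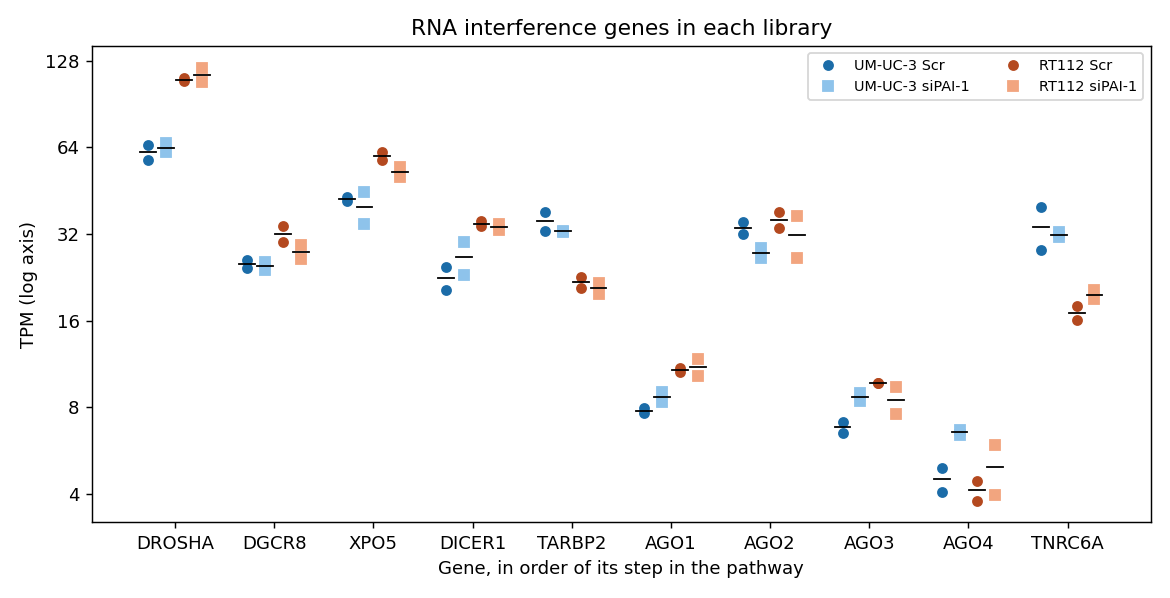
TPM of each gene (log axis) in the 8 libraries, with genes in order of their step in the pathway, circles for Scr, squares for siPAI-1 and a black bar for each group's mean. DROSHA stands at 108 to 121 TPM in the RT112 libraries and at 58.1 to 66.1 TPM in the UM-UC-3 libraries, while TARBP2 and TNRC6A lie lower in RT112.

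The first comparison asked how far the lines differed in this machinery under control siRNA. In the Scr libraries, 7 of the 10 genes were called, of which DROSHA, DICER1, XPO5, AGO3 and AGO1 were higher in RT112 and TARBP2 and TNRC6A were lower. Across all 19201 genes tested, 51.6% were called, 25.3% higher and 26.3% lower. Among the 12769 genes that averaged 1 TPM or more in these libraries, 64.6% were called, so a share of 7 in 10 was near the background. No member was both called and at least 2-fold different, against 35.5% of genes at that level. The median difference of the 10 genes was 0.41 on the log2 scale, beside -0.06 over all genes tested. With signs ignored, the median was 0.50 for the 10 genes and 0.74 over all genes tested. With 1 Scr library left out, the count fell to between 0 and 2, and 30.3% to 35.0% of all genes were then called.

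The comparison was repeated in the 4 siPAI-1 libraries, which share no library with the Scr comparison. Here 3 of the 10 genes were called, beside 52.2% of all genes. The median difference was 0.17 for the 10 genes and -0.02 over all genes tested. DROSHA, TARBP2 and TNRC6A were called in both sets with the same direction, as were 45.6% of the 18286 genes tested in both. All 4 RT112 libraries lay on 1 side of all 4 UM-UC-3 libraries for 7 genes: DROSHA, DGCR8, XPO5, DICER1, TARBP2, AGO1 and TNRC6A. The same held for 73.9% of genes averaging 1 TPM or more.

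**Figure D2:**
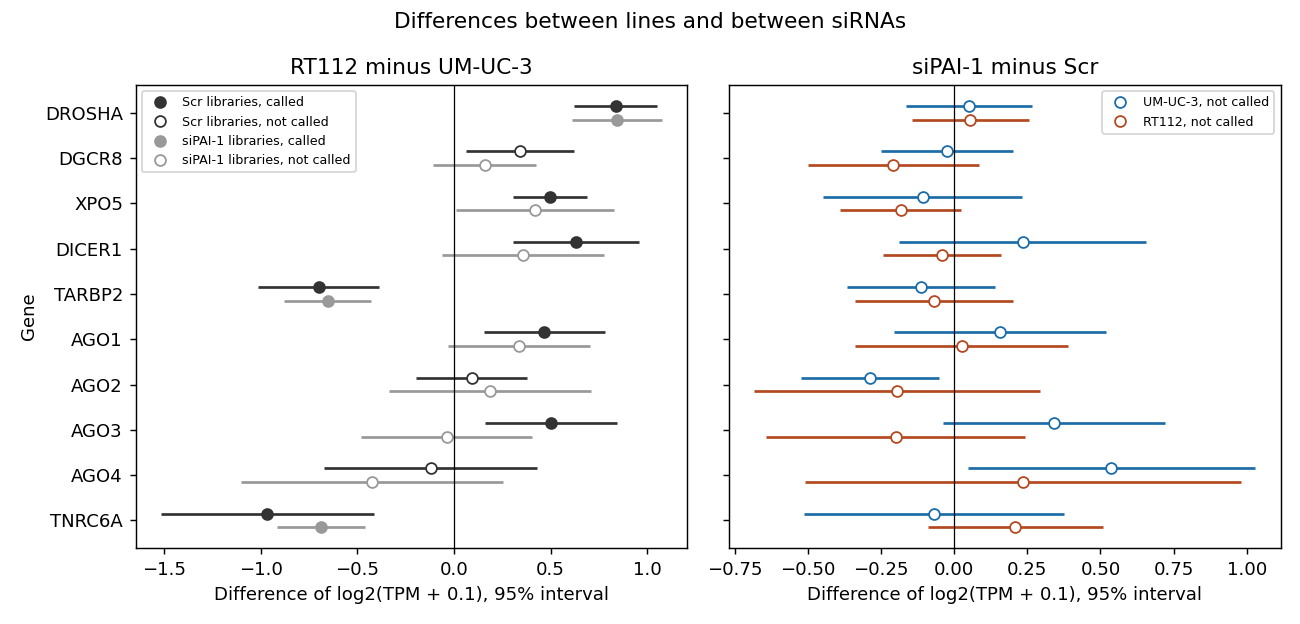
Differences on the log2(TPM + 0.1) scale with 95% intervals, on the left RT112 minus UM-UC-3 in the Scr (black) and siPAI-1 (grey) libraries, on the right siPAI-1 minus Scr in UM-UC-3 (blue) and RT112 (red). Filled points passed the adjusted p of 0.05, which 7 genes did in the Scr libraries, 3 in the siPAI-1 libraries and none in the siRNA comparisons.

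DROSHA, the nuclease of the Microprocessor, was at 58.1 and 65.2 TPM in UM-UC-3 Scr and at 109 and 111 TPM in RT112 Scr. The siPAI-1 libraries gave 61.5 and 66.1 TPM in UM-UC-3, and RT112 gave 108 and 121 TPM. Every RT112 library was thus above every UM-UC-3 library. DROSHA was 1.79-fold higher in RT112 Scr (0.84 on the log2 scale, SE 0.078, adjusted p = 0.0023) and also 1.79-fold higher in the siPAI-1 libraries (0.84, SE 0.084, adjusted p = 0.00281). It had the largest upward difference of the 10 genes in both sets.

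DGCR8, which binds the primary transcript and positions DROSHA, was at 26.1 and 24.5 TPM in UM-UC-3 Scr and at 34.2 and 30 TPM in RT112 Scr. Under siPAI-1 it was at 23.96 and 25.69 TPM in UM-UC-3 and at 26.2 and 29.3 TPM in RT112. The Scr libraries of the lines did not overlap, but the difference of 0.34 (SE 0.10, adjusted p = 0.0514) was not called. It passed in 6 of 9 other settings of the test that kept all 4 libraries. In the siPAI-1 libraries the difference was 0.16 (SE 0.096, adjusted p = 0.247) and was not called. The ratio of DROSHA to DGCR8 was 2.23 to 2.67 in the UM-UC-3 libraries and 3.17 to 4.13 in the RT112 libraries, so the ranges of the lines did not overlap.

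DROSHA lies at chr5:31400494-31532093 and DGCR8 at chr22:20080241-20111872 (GRCh38). The promoters of DROSHA and TNRC6A are shown because these genes had the largest difference in each direction. They were taken from RefSeq (GRCh38.p14), from 250 bases before to 50 bases after the start of an annotated transcript of the gene. The stretches lie at chr5:31532044-31532343 on the minus strand and chr16:24729401-24729700 on the plus strand. That of TNRC6A is inside the bounds of the gene (chr16:24610205-24826218), and which start these cells use was not tested. Capitals mark CCAAT and CCGGAAG on either strand, and no marked site overlaps another.
DROSHA: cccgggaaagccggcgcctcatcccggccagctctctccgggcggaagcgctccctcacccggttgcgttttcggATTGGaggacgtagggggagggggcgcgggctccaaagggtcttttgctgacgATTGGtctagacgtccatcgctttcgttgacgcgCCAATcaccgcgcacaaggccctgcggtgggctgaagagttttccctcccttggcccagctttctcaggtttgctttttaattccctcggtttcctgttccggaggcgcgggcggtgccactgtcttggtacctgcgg
TNRC6A: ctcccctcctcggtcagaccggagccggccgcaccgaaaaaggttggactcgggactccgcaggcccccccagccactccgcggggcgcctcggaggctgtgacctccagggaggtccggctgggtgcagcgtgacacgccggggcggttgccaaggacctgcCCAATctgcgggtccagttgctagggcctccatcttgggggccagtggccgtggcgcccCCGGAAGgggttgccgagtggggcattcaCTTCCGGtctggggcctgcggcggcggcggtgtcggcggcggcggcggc
The DROSHA promoter holds CCAAT 3 times and no CCGGAAG, and the TNRC6A promoter holds CCAAT 1 time and CCGGAAG 2 times. A promoter entry was found for 9 of the 10 genes, all but AGO2. On either strand, CCAAT was present for 6 of these 9 genes and for 39.7% of all 27305 genes with an entry. CCGGAAG was present for AGO3 and TNRC6A, and for 12.2% of all genes. TATAAA was present for 0 of the 9 genes and for 13.99% of all genes. CCAAT was present in both promoters shown. Whether these motifs bear on the level of either gene was not tested.

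XPO5, the export receptor for the precursor hairpin (chr6:43522334-43576038), was at 41.6 and 43.2 TPM in UM-UC-3 Scr and at 61.9 and 57.9 TPM in RT112 Scr. Under siPAI-1 it was at 44.7 and 34.7 TPM in UM-UC-3 and at 50.5 and 54.9 TPM in RT112. The lines did not overlap in either set. The gene was 1.41-fold higher in RT112 Scr (0.50, SE 0.069, adjusted p = 0.00652) and 1.34-fold higher in the siPAI-1 libraries, where the difference of 0.42 (SE 0.15, adjusted p = 0.0802) was not called.

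DICER1, the nuclease that cuts the hairpin into a duplex (chr14:95086228-95158010), was at 20.5 and 24.6 TPM in UM-UC-3 Scr and at 34.1 and 35.5 TPM in RT112 Scr. Under siPAI-1 it was at 30.1 and 23.1 TPM in UM-UC-3 and at 33.1 and 34.7 TPM in RT112. All RT112 libraries were above all UM-UC-3 libraries. DICER1 was 1.55-fold higher in RT112 Scr (0.63, SE 0.12, adjusted p = 0.0147), and in the siPAI-1 libraries the difference was 0.36 (SE 0.15, adjusted p = 0.123).

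TARBP2, the double-stranded RNA-binding partner of DICER1 (chr12:53500923-53506431), went the other way. It was at 38.3 and 32.7 TPM in UM-UC-3 Scr and at 22.7 and 20.9 TPM in RT112 Scr. Under siPAI-1 it was at 32.9 and 32.5 TPM in UM-UC-3 and at 19.9 and 21.6 TPM in RT112. No library of RT112 reached the lowest of UM-UC-3. TARBP2 was 1.62-fold lower in RT112 Scr (-0.70, SE 0.11, adjusted p = 0.01) and 1.57-fold lower in the siPAI-1 libraries (-0.65, SE 0.081, adjusted p = 0.00485). The ratio of DICER1 to TARBP2 was 0.535 to 0.916 in the UM-UC-3 libraries and 1.51 to 1.70 in the RT112 libraries, so DICER1 was the lower of the pair in all UM-UC-3 libraries and the higher in all RT112 libraries.

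PRKRA codes for PACT, the other double-stranded RNA-binding partner of DICER1, and was looked up after the values of TARBP2 were seen. It was at 24.6 and 19 TPM in UM-UC-3 Scr and at 37.6 and 38.2 TPM in RT112 Scr. PRKRA was thus higher in RT112 (0.81, SE 0.15, adjusted p = 0.0139), opposite to TARBP2.

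AGO4, AGO1 and AGO3 lie next to each other on chromosome 1, at chr1:35807636-35857890, chr1:35869761-35930532 and chr1:35930718-36072500, and AGO2 lies apart on chromosome 8. Only 185 bases separate the annotated end of AGO1 from the start of AGO3. Reads shared by such close paralogs can be split between them in ways the files do not show.

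AGO2, the Argonaute that cuts matched targets, was the most abundant member of the family in every library. It was at 31.97 and 35.24 TPM in UM-UC-3 Scr and at 33.5 and 38.2 TPM in RT112 Scr. These overlapped, and the difference was 0.09 (95% interval -0.20 to 0.38, adjusted p = 0.5). Under siPAI-1, AGO2 was at 26.4 and 28.6 TPM in UM-UC-3 and at 26.4 and 37.02 TPM in RT112.

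AGO1 was at 7.64 and 7.95 TPM in UM-UC-3 Scr and at 11.0 and 10.6 TPM in RT112 Scr. It was 1.38-fold higher in RT112 (0.47, SE 0.11, adjusted p = 0.0305). The siPAI-1 libraries gave 9.05 and 8.35 TPM in UM-UC-3, and RT112 gave 10.3 and 11.8 TPM, so the lines did not overlap here either, with a difference of 0.34 (SE 0.13, adjusted p = 0.105) that was not called.

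AGO3 was at 7.14 and 6.54 TPM in UM-UC-3 Scr and at 9.71 and 9.74 TPM in RT112 Scr. It was 1.42-fold higher in RT112 (0.50, SE 0.12, adjusted p = 0.0324). In the siPAI-1 libraries it was at 8.95 and 8.43 TPM in UM-UC-3 and at 7.58 and 9.43 TPM in RT112. These overlapped, and the difference between lines was -0.04 (SE 0.16, adjusted p = 0.851).

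AGO4 was at 4.93 and 4.07 TPM in UM-UC-3 Scr and at 4.45 and 3.8 TPM in RT112 Scr, which overlapped, with a difference of -0.12 (95% interval -0.67 to 0.43, adjusted p = 0.641). Under siPAI-1 it was at 6.66 and 6.44 TPM in UM-UC-3 and at 5.95 and 3.96 TPM in RT112.

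The summed level of AGO1 to AGO4 was 51.7 and 53.8 TPM in UM-UC-3 Scr and 58.7 and 62.4 TPM in RT112 Scr. AGO2 made up 63.7% ± 2.6 (SD, n = 2) of this sum in UM-UC-3 Scr and 59.2% ± 2.9 in RT112 Scr, and these libraries overlapped. Under siPAI-1 the share was 53.5% ± 2.5 in UM-UC-3 and 56.0% ± 4.9 in RT112. In UM-UC-3, Scr gave 61.9% and 65.5% and siPAI-1 gave 51.7% and 55.2%, which did not overlap. The sums were close there (52.7 and 51.4 TPM on average). In the same comparison, the levels of 37.8% of genes averaging 1 TPM or more did not overlap either. In RT112 the shares overlapped, at 57.1% and 61.2% in Scr and 52.6% and 59.5% in siPAI-1. With 2 libraries per group, no exact permutation test of such a share can pass the threshold, and none was run.

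**Figure D3:**
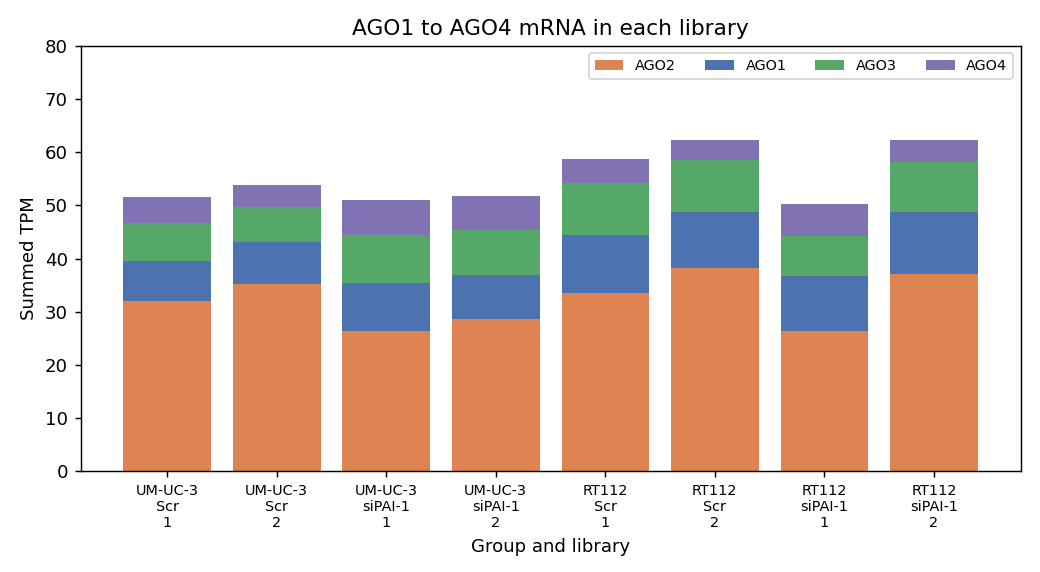
Summed TPM of AGO2, AGO1, AGO3 and AGO4 in each of the 8 libraries, stacked from the bottom in that order. AGO2 is the largest segment in every library, at 51.7% to 65.5% of the sum, and the sum runs from 50.2 to 62.4 TPM.

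TNRC6A, the scaffold that ties Argonaute to the deadenylases (chr16:24610205-24826218), was at 28.1 and 39.7 TPM in UM-UC-3 Scr and at 16.1 and 18.1 TPM in RT112 Scr. Under siPAI-1 it was at 32.4 and 31.3 TPM in UM-UC-3 and at 18.98 and 20.47 TPM in RT112. All RT112 libraries were below all UM-UC-3 libraries, and the UM-UC-3 Scr libraries differed most between themselves. TNRC6A was 1.95-fold lower in RT112 Scr (-0.97, SE 0.20, adjusted p = 0.0198) and 1.61-fold lower in the siPAI-1 libraries (-0.69, SE 0.082, adjusted p = 0.00435). This was the largest downward difference of the 10 genes in both sets.

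The paralogs TNRC6B and TNRC6C complete the family, and TNRC6B was named after its values were seen. TNRC6B was at 7.39 and 6.57 TPM in UM-UC-3 Scr and at 8.02 and 7.97 TPM in RT112 Scr, with a difference of 0.20 (SE 0.13, adjusted p = 0.308). TNRC6C was at 5.49 and 3.71 TPM in UM-UC-3 Scr and at 1.03 and 1.69 TPM in RT112 Scr, a difference of -1.70 (SE 0.36, adjusted p = 0.0218). The summed level of the 3 paralogs was 40.95 and 50.02 TPM in UM-UC-3 Scr and 25.1 and 27.7 TPM in RT112 Scr. TNRC6A was the largest part throughout, with 74.0% ± 7.7 (SD, n = 2) of the sum in UM-UC-3 Scr and 64.6% ± 0.84 in RT112 Scr. The level of AGO2 was 0.887 and 1.14 times that of TNRC6A in UM-UC-3 Scr and 2.09 and 2.11 times in RT112 Scr. Under siPAI-1 it was 0.814 and 0.916 times in UM-UC-3 and 1.39 and 1.81 times in RT112.

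The second comparison asked whether the machinery changed when PAI-1 was depleted. In UM-UC-3, limma called 0 of the 10 genes and 0% of the 18528 genes tested. At an unadjusted p under 0.05, AGO2 and AGO4 passed, beside 6.01% of all genes. Without the filter on genes at 0 TPM, 29 genes were called and none of the 10 was among them, and without the trend in the variance 0 genes were called. The Scr and siPAI-1 libraries did not overlap for 4 of the 10 genes, AGO1 to AGO4, and for 37.8% of genes averaging 1 TPM or more. AGO2 was at 31.97 and 35.24 TPM in Scr and at 26.4 and 28.6 TPM in siPAI-1, a difference of -0.29 (95% interval -0.52 to -0.05, adjusted p = 0.791). AGO4 was at 4.93 and 4.07 TPM in Scr and at 6.66 and 6.44 TPM in siPAI-1, a difference of 0.54 (95% interval 0.05 to 1.03, adjusted p = 0.812). AGO1 and AGO3 also had both siPAI-1 libraries above both Scr libraries, with differences of 0.16 and 0.34. Thus the Argonaute genes did not lie on 1 side, since AGO2 was lower and the others higher in the siPAI-1 libraries. For the remaining 6 genes the libraries overlapped, and the differences ran from -0.11 for TARBP2 to 0.23 for DICER1.

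In RT112, 0 of the 10 genes and 0% of the 18437 genes tested were called by limma. None of the 10 genes passed an unadjusted p under 0.05, which 5.77% of all genes did. Without the filter 58 genes were called, again none of the 10, and without the trend 0 genes. Libraries did not overlap for AGO3, DGCR8, XPO5 and TNRC6A, 4 of the 10 genes, and for 37.3% of genes averaging 1 TPM or more. Of these, TNRC6A was higher in siPAI-1, with a difference of 0.21 (95% interval -0.09 to 0.51), and the others were lower. XPO5 differed by -0.18 (95% interval -0.39 to 0.02), DGCR8 by -0.21 (95% interval -0.50 to 0.08) and AGO3 by -0.20 (95% interval -0.64 to 0.24). The intervals leave room for changes of this size in either line, since a p that misses the threshold does not show that the levels were equal.

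DROSHA and DICER1, the nucleases of the pathway, had libraries of siPAI-1 and Scr that overlapped in both lines. DROSHA differed by 0.05 (95% interval -0.16 to 0.27) in UM-UC-3 and 0.06 (95% interval -0.14 to 0.26) in RT112, intervals that leave out the difference between the lines. DICER1 differed by 0.23 (95% interval -0.19 to 0.66) in UM-UC-3 and -0.04 (95% interval -0.24 to 0.16) in RT112.

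Whether siPAI-1 acted unequally on the lines was tested with the interaction over all 8 libraries. None of the 10 genes was called, nor were any of all 20274 genes (0%). Without the filter 73 genes were called and without the trend 7, none of them a member. At an unadjusted p under 0.05, only AGO3 passed among the 10 genes, beside 6.76% of all genes. Under siPAI-1, AGO3 stood above Scr in UM-UC-3 and below it in RT112, and its effects differed by -0.54 (SE 0.20, adjusted p = 0.705).

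The other genes of the pathway were grouped by role into lists, and named from each were the gene with the highest mean and the 3 with the largest differences among those called. No list had a gene called in either siRNA comparison, so the counts below are for RT112 against UM-UC-3 in Scr. In that comparison 51.6% of all genes were called, and 64.6% of those averaging 1 TPM or more. Genes that act after Argonaute, the silencing effectors, had 7 higher and 11 lower of 29 tested, with a median difference of -0.17 beside -0.06 over all genes. CNOT7, a deadenylase of the CCR4-NOT complex, was at 217 and 204 TPM in UM-UC-3 Scr and at 100.5 and 96.2 TPM in RT112 Scr, a difference of -1.10 (adjusted p = 0.000723). DCP1B, a cofactor of the decapping enzyme, was at 5.03 and 4.68 TPM in UM-UC-3 Scr and at 0.02 and 0 TPM in RT112 Scr, and it stayed at or below 0.08 TPM in the RT112 siPAI-1 libraries. PABPC1, the cytoplasmic poly(A)-binding protein, was the most abundant of the list and was higher in RT112 Scr by 0.29 (adjusted p = 0.00637), with 0.11 (adjusted p = 0.173) in the siPAI-1 libraries.

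Of 19 nuclear factors and Microprocessor partners, 1 was called higher and 11 lower, with a median of -0.27. The one that was higher was METTL3, which methylates primary transcripts, at 14.7 and 14.2 TPM in UM-UC-3 Scr and 23.1 and 27.5 TPM in RT112 Scr (0.80, adjusted p = 0.00825). DROSHA was called higher in the same comparison, while most called genes of this list were lower. HNRNPA1, which binds certain primary microRNA transcripts, was lower by 0.68 on the log2 scale, as was SRRT (ARS2), which links the cap-binding complex to microRNA processing. Of 6 transport genes, RANGAP1 was called higher by 0.45, and XPO1 (-0.65) and RCC1 (-0.49) lower. RAN, the GTPase that drives XPO5, had a difference of -0.22 (adjusted p = 0.0525) and was not called.

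Of 20 genes that load Argonaute or work with DICER1, 9 were called higher and 3 lower, with a median of 0.18. FKBP4 and FKBP5, both cochaperones of HSP90, differed in opposite directions. FKBP4 was at 88.6 and 85.5 TPM in UM-UC-3 Scr and at 187 and 212 TPM in RT112 Scr (1.19, adjusted p = 0.00106), and FKBP5 was at 11.4 and 10.5 TPM and at 5.41 and 5.08 TPM (-1.04, adjusted p = 0.00501). FXR2, an RNA-binding protein of the fragile X family, was lower by 0.95 on the log2 scale. HSPA8, the chaperone with the highest level of the list, was at 1439 to 1555 TPM in the 4 Scr libraries and had a difference of 0.01 (adjusted p = 0.943).

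Of 13 genes that tail or degrade small RNAs, 6 were called higher and 3 lower. DIS3L2, which degrades uridylated precursors of let-7, was higher by 0.74 (adjusted p = 0.0106), TUT1, a terminal uridylyltransferase, was higher by 0.83 (0.22 and not called in the siPAI-1 libraries), and the exoribonucleases EXOSC10 and XRN2 were lower, with differences of -1.02 and -0.37. Among 8 genes that modify Argonaute, 1 was called higher and 3 lower. The subunits of prolyl 4-hydroxylase, which modifies AGO2, went opposite ways: P4HA1 was lower by 0.88 and P4HB higher by 0.72. CSNK1A1, a kinase of Argonaute, was lower by 0.76. HNRNPA1, PABPC1, RAN and HSPA8 have processed pseudogenes, so their values depend on how shared reads were assigned.

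The germline branch that works with piRNAs was low, with 4 of its 10 genes at 0 TPM in all libraries and 2 of the 6 tested called lower in RT112 Scr. PIWIL1, an Argonaute relative of the germline, was at 2.93 to 3.44 TPM in the 4 Scr libraries. PLD6 was at 1.61 and 1.53 TPM in UM-UC-3 Scr and at 0.55 and 0.58 TPM in RT112 Scr (-1.33, adjusted p = 0.0184). This call was lost in the fit over all 8 libraries, with the replicate block, without the filter and with any 1 library left out, and the siPAI-1 libraries did not give it either (adjusted p = 0.0687). DDX4, which marks germ cells, was at 0 TPM in all libraries.

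Sensors of double-stranded RNA were described because all cells had received siRNA. Of 11 tested, 6 were called higher and 2 lower in RT112 Scr, with a median of 0.68. OAS1, an enzyme activated by double-stranded RNA, was at 8.41 and 9.3 TPM in UM-UC-3 Scr and at 46.7 and 55.1 TPM in RT112 Scr (2.51, adjusted p = 0.000631). EIF2AK2, the kinase PKR, was higher in RT112 by 0.42 (adjusted p = 0.0172), and DHX58, a helicase of the RIG-I family, was lower, at 1.82 and 1.19 TPM against 0.07 and 0.22 TPM. Under siPAI-1 the lines overlapped for DHX58, at 1.15 and 0.26 TPM in UM-UC-3 and at 0.28 and 0.3 TPM in RT112 (-0.78, adjusted p = 0.397).

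**Figure D4:**
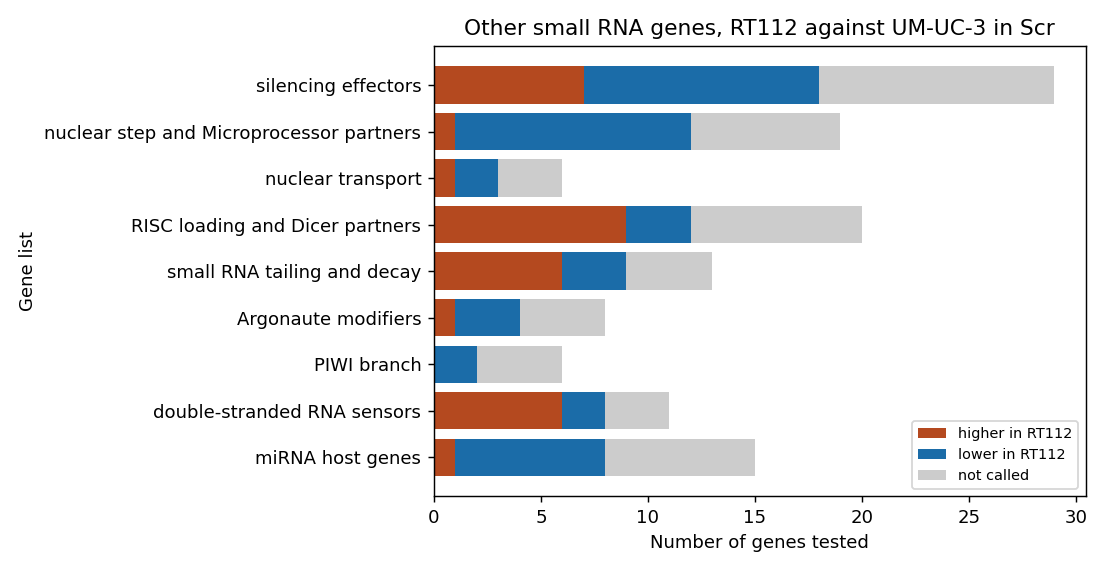
Number of genes tested in each of 9 lists of other small RNA genes, for RT112 against UM-UC-3 in Scr, with genes called higher in RT112 in red, called lower in blue and not called in grey. The nuclear list has 1 higher and 11 lower, and the loading list has 9 higher and 3 lower.

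MicroRNA host genes, long transcripts that carry microRNAs, are substrates of the machinery. The libraries were made from mRNA, so mature microRNAs were not measured. Of 25 such genes, 8 were at 0 TPM in all libraries, and of 15 tested in Scr, 1 was called higher in RT112 and 7 lower, with a median of -0.63. MIR137HG was at 18.7 and 16.3 TPM in UM-UC-3 Scr and at 0.05 and 0.11 TPM in RT112 Scr (-6.63, adjusted p = 0.00052). MIR99AHG was at 1.33 and 2.09 TPM in UM-UC-3 Scr and was listed at 0 in all 4 RT112 libraries. MIR646HG was the one that was higher in RT112, at 2.53 and 2.49 TPM against 0.02 and 0 TPM. MIR4435-2HG, the most abundant, was at 113 and 110 TPM in UM-UC-3 Scr and at 70.6 and 73.0 TPM in RT112 Scr.

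MIR100HG, MIRLET7BHG and MIR210HG were named after their values were seen. MIR100HG was at 8.68 and 7.45 TPM in UM-UC-3 Scr and at 2.07 and 2.72 TPM in RT112 Scr (-1.72, adjusted p = 0.00512). MIRLET7BHG was at 1.13 and 1.2 TPM and at 0.26 and 0.23 TPM in these groups, and MIR210HG at 4.11 and 5.96 TPM and at 1.91 and 1.63 TPM. All of them were called lower in RT112 Scr, and MIR210HG was not called in the siPAI-1 libraries (-1.21, adjusted p = 0.0642).

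Some of the microRNAs carried by these hosts are shown to make plain which of those shown share a seed. The seed is the stretch of bases 2 to 8 that pairs with targets and is set in capitals. Others were left out, among them hsa-miR-4435 of MIR4435-2HG. Also left out were hsa-let-7a-3p and hsa-let-7b-3p of MIRLET7BHG, which share a seed with each other. The mature sequences are from RefSeq (GRCh38.p14), matched by position inside the host gene. MIR99AHG on chromosome 21 and MIR100HG on chromosome 11 each hold a miR-99 or miR-100, a let-7 and a miR-125b.
hsa-miR-99a-5p: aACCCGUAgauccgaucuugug
hsa-miR-100-5p: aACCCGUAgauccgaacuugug
hsa-let-7c-5p: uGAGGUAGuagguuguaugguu
hsa-let-7a-5p: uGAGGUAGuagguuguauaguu
hsa-let-7b-5p: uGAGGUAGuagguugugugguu
hsa-miR-125b-5p: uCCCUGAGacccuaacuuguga
hsa-miR-137-3p: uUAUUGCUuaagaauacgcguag
hsa-miR-210-3p: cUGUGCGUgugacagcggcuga
hsa-miR-646: aAGCAGCUgccucugaggc
The microRNAs hsa-miR-99a-5p (MIR99AHG, chr21:16539101-16539122) and hsa-miR-100-5p (MIR100HG, chr11:122152275-122152296) share a seed. So do hsa-let-7c-5p (MIR99AHG, chr21:16539838-16539859), hsa-let-7a-5p (MIR100HG and MIRLET7BHG) and hsa-let-7b-5p (MIRLET7BHG, chr22:46113691-46113712). The mature hsa-miR-125b-5p is the same from MIR99AHG and MIR100HG. The other hosts carry seeds of their own, in hsa-miR-137-3p (MIR137HG, chr1:98046091-98046113), hsa-miR-210-3p (MIR210HG, chr11:568112-568133) and hsa-miR-646 (MIR646HG, chr20:60308534-60308552).

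**Figure D5:**
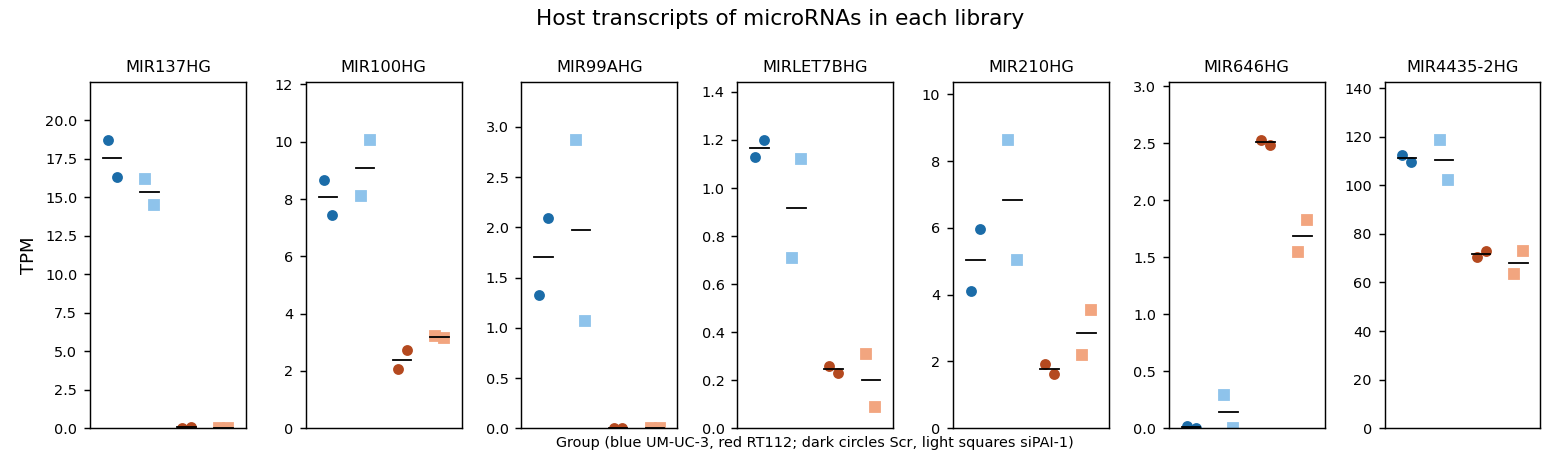
TPM of 7 microRNA host transcripts in the 8 libraries, each panel with its own linear axis from 0, blue for UM-UC-3, red for RT112, dark circles for Scr, light squares for siPAI-1 and a black bar for each mean. MIR137HG is at 14.5 to 18.7 TPM in the UM-UC-3 libraries and at most 0.11 TPM in the RT112 libraries, and MIR646HG shows the opposite order.

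The machinery genes DGCR8 and DICER1 also hold microRNAs themselves. They are shown because each lies within the bounds of a gene whose product takes part in making microRNAs.
hsa-miR-3618: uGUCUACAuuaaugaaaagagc
hsa-miR-1306-5p: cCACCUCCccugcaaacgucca
hsa-miR-1306-3p: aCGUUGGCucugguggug
hsa-miR-3173-5p: uGCCCUGCcuguuuucuccuuu
hsa-miR-3173-3p: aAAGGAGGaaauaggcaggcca
The first lies in DGCR8 at chr22:20085797-20085818 and the arms of hsa-miR-1306 at chr22:20086072-20086093 and chr22:20086112-20086129, all on the plus strand. The arms of hsa-miR-3173 lie in DICER1, on the minus strand, at chr14:95137961-95137982 and chr14:95137923-95137944. No seed of these 5 sequences is shared with another shown here. DGCR8 stood at 23.96 to 34.22 TPM and DICER1 at 20.5 to 35.5 TPM over the 8 libraries, as given above.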

How the data were processed

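RNA-seq libraries of UM-UC-3 and RT112 cells, 2 for each siRNA in each line, were grouped by their labels. Per gene, the authors deposited TPM and FPKM, both from reads aligned to GRCh38. The methods name cutadapt, STAR, featureCounts and DESeq2, while the submitters' processing notes name STAR 2.5.0 and RSEM 1.2.25, so which program counted is not settled. No counts were used here, and DESeq2 was not run. In the deposited TPM every library has one common sum, and the deposited FPKM are scaled to length and total reads. Of 27567 entries, 92 ERCC spike-ins were at 0 and left out, and 7201 of 27475 human genes were at 0 in all libraries. No column was unused.

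Two-sided tests on log2(TPM + 0.1) were made for the 4 libraries compared with lmFit and trended eBayes of limma 3.58.1 (R 4.3.3). P-values were adjusted by Benjamini-Hochberg over all genes detected above 0 TPM in any fitted library. The interaction was fitted on all 8. Depth was estimated from FPKM steps of short genes, with a search between 20 and 45 M reads and reads of 75 bases, since a depth 2 times as large fits equally well, and it covers counting error only. Tables and plots were made in Python 3.11.15 (pandas 2.3.3, numpy 2.4.6, matplotlib 3.10.9).

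The members and the gene lists were chosen with earlier results of these data known. Named were all members and, from each list, the gene with the highest mean TPM and the 3 with the largest difference among called genes that averaged 1 TPM or more in a group, apart from genes said to be chosen later. Some genes covered by the rule are not reported here. As alternatives, the pseudocount was set to 1 or 0.01 TPM, and the others were FPKM, rescaling by the median ratio, a filter at a mean of 1 TPM or none, eBayes without trend, 1 fit over all 8 libraries, a replicate block, and each replicate left out. The siPAI-1 libraries in place of Scr, and the fit over all 8 libraries without each Scr library, were added after the data were seen.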

Additional observations from a re-analysis of the deposited data

Results flagged for a closer look

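AGO3 stood out because its libraries moved in opposite directions with siPAI-1 in the 2 lines. In UM-UC-3 it was at 7.14 and 6.54 TPM in Scr and at 8.95 and 8.43 TPM in siPAI-1, and in RT112 at 9.71 and 9.74 TPM in Scr and at 7.58 and 9.43 TPM in siPAI-1. The effect in RT112 minus that in UM-UC-3 was -0.54 on the log2 scale, with an unadjusted p = 0.0354 and an adjusted p = 0.705 in limma's interaction, so the difference did not pass the correction. With 1 of the 8 libraries left out it ran from -0.70 to -0.39, and its adjusted p stayed above the threshold in all these fits.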

How the results depend on the processing

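Of 932 alternative values for single genes, 797 kept their direction and side of the threshold. The number of members called between the lines in Scr was 7, and 5 to 8 in 9 other settings that kept all 4 libraries. It was 0 to 2 with 1 replicate left out (2 without either UM-UC-3 Scr library, 0 without RT112 Scr replicate 1 and 1 without RT112 Scr replicate 2), and such fits have fewer samples. It was 3 in the siPAI-1 libraries. It also fell below 7 in 1 fit over all 8 libraries, made without each Scr library in turn. DROSHA, TARBP2 and TNRC6A were called in all 4 of these pooled fits. The count without a filter was 5, with 27.0% of all genes called. Among list genes, TNRC6C and P4HA1 kept their calls in 8 of 9 other settings with all 4 libraries. EIF2AK2 did so in 7 of 9 and DHX58 in 7 of 8.

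Replicate differences correlated at 0.04 between Scr and siPAI-1 in UM-UC-3 and at -0.04 in RT112. Between the Scr libraries of the lines the value was 0.01. Such differences also hold counting error, so these values cannot settle whether libraries were prepared in pairs. With the replicate block, 6 members were called between the lines. AGO1 and AGO3 were no longer called and DGCR8 was, and no member was called in the other comparisons.

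Some small differences changed sign. Between the lines, AGO3 was -0.0384 in the siPAI-1 libraries and HSPA8 -0.0238 with FPKM. With 1 library left out, the difference between lines ran from -0.0015 to 0.19 for AGO2, -0.26 to 0.0146 for AGO4, -0.0511 to 0.0612 for HSPA8 and -0.17 to 0.0174 for PIWIL1. The siPAI-1 difference in UM-UC-3 ran from -0.0327 to 0.13 for DROSHA, -0.0746 to 0.0255 for DGCR8, -0.29 to 0.0752 for XPO5 and -0.32 to 0.18 for TNRC6A, and in RT112 from -0.0737 to 0.13 for AGO1, -0.44 to 0.0488 for AGO2, -0.0532 to 0.52 for AGO4 and -0.0277 to 0.14 for DROSHA. Of these, the difference of AGO3 between the lines in Scr was the one that had been called. The cause was not tested. Depth is known only as an estimate, which limits the lowest genes most.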
